A study of Mus musculus with 64 samples.

Results

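The tissue that lies directly around the developing mouse inner ear was profiled in 6 of the 64 arrays of a study of the ear between embryonic day (E) 9 and E15. All 6 arrays that carry the label of non-inner ear tissue were used: 2 of tissue at E9, 2 of tissue pooled from E9.5 to E10.5 and 2 of tissue pooled from E11 to E15, with E9 as the earlier point beside the main comparison of the 2 later groups. The other 58 arrays hold inner ear tissue of the same CBA/J mouse strain, in 29 groups of 2. No group carries a mutation or a treatment. Each array is 1 pool of microdissected tissue, and the 2 pools of a group came from different litters, so the spread between arrays is that between pools. Read per stage, the labels give 8 and 9 tissues for the E9 pools, 21 and 24 for E9.5 to E10.5, and 31 and 38 for E11 to E15, and the mean ages of the last 2 pairs of pools were then 10.02 and 9.875 days, and 12.87 and 12.89 days. Within E11 to E15 no separate ages can be seen. Tissue was freed in dispase, a protease, for 8 to 10 minutes up to E10.5 and for 20 to 25 minutes from E11, so the E11 to E15 pools differ from both earlier groups in incubation time as well as in age, and the effects of age and incubation cannot be told apart there. The step between E9 and E9.5 to E10.5 lies within 1 incubation time.

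At these ages the ear vesicle sinks into head mesenchyme beside the hindbrain. That mesenchyme, of neural crest and mesodermal origin, condenses around the ear and turns into the cartilage of the otic capsule, which is later replaced by bone. Chondrocytes lay down a matrix of type II, IX and XI collagen, aggrecan and matrilins, under the control of Sox9 with Sox5 and Sox6, while fibroblasts make type I and III collagen and small leucine-rich proteoglycans. Cranial ganglia and the edge of the hindbrain lie next to the ear, and vessels carry primitive red cells from the yolk sac, whose embryonic globins give way to adult globins when the fetal liver takes over.

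Values are microarray signals after quantile normalization, on a linear scale with a floor of 10 in the deposited values, and changes are differences of log2(signal + 16) with their standard error (SE). A gene was called, and is said to have risen or fallen, when limma's adjusted p was under 0.05 and the change was at least 1 log2. The 6 arrays had 7.21 to 8.23% of probe sets at the floor. Arrays of a pair correlated at 0.9634 (E11 to E15) to 0.9885 (E9.5 to E10.5) in log2(signal + 16) across the 9352 genes tested. Of 9352 genes, 44 were at least 1 log2 apart between the 2 arrays of E9, 50 between those of E9.5 to E10.5 and 326 between those of E11 to E15. The label of tissue outside the ear was borne out by markers, since the summed signal of the measured otic markers Oc90, Otog, Tecta and Gata3 was 237 and 331 at E11 to E15, against 6809 to 23222 over the inner ear arrays of those ages. The summed signal of 5 mesenchyme markers (Twist1, Prrx1, Pdgfra, Col1a1 and Col3a1) was 11321 and 10206, against 623 to 3307 in those inner ear arrays. The tissue is not mesenchyme alone: 5 neuron markers (Stmn2, Tubb3, Nefl, Elavl3 and Ina) summed to 10978 and 12255 at E9.5 to E10.5, and embryonic globins were among the brighter signals of all 6 arrays. In bulk tissue, more cells of a type and more RNA per cell cannot be told apart.

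Genes of fibrous and cartilage matrix were the most often higher of 28 gene lists at E11 to E15 against E9.5 to E10.5, with 27 and 14 called members. At E9.5 to E10.5 against E9 that place was held by neuronal genes, with 20. At E11 to E15 against E9.5 to E10.5, 887 of 9352 genes were called (9.48%), 505 higher (5.4%) and 382 lower (4.08%). At E9.5 to E10.5 against E9, 536 were called (5.73%), 341 higher (3.65%) and 195 lower (2.09%). At E11 to E15 against E9, 1857 were called (19.9%), 962 higher (10.3%) and 895 lower (9.57%). These 3 comparisons share arrays, so each is given by its own values. Of the 887 genes called at E11 to E15 against E9.5 to E10.5, 886 had groups that did not overlap. At E9.5 to E10.5 against E9 this held for 535 of 536. A call needs at least 1 log2 and a small adjusted p, so little overlap among called genes follows from the rule. The same share over all 9352 genes was not counted.

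Cartilage matrix genes led the rises at E11 to E15. Col9a3, which encodes a chain of type IX collagen that coats cartilage fibrils, had signals of 10 and 17 at E9, 10 and 10 at E9.5 to E10.5, and 3756 and 4543 at E11 to E15. Both early groups lay at or next to the floor, and the last lay more than 2 orders of magnitude above it. The later step was 7.32 log2 (SE 0.17, limma adjusted p = 7.56e-30), a lower bound because both E9.5 to E10.5 arrays were at the floor. Matn1, a cartilage matrilin, was at 10 on all 4 earlier arrays and at 668 and 725 at E11 to E15, a rise of at least 4.77 log2 (SE 0.22). Matn4, another matrilin, had 38 and 59 at E9, 49 and 29 at E9.5 to E10.5, and 4973 and 6915 at E11 to E15 (6.77 log2, SE 0.44). Acan, the aggrecan core protein that holds water in cartilage, stayed between 22 and 29 up to E10.5 and reached 475 and 682 (3.75 log2, SE 0.31, adjusted p = 2.96e-12). In each of these genes both E11 to E15 arrays lay far above all 4 earlier arrays.

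Other cartilage genes were already present before E11. Col2a1, the main collagen of cartilage and an early product of head mesenchyme and of the otic vesicle, had 935 and 1218 at E9, 1139 and 1027 at E9.5 to E10.5, and 5719 and 4708 at E11 to E15, so that the earlier step was 0.02 log2 (SE 0.24) and the later 2.25 log2 (SE 0.24, adjusted p = 1.96e-09). Col9a1 took a different course, with 399 and 477 at E9, 189 and 186 at E9.5 to E10.5, and 2612 and 2467 at E11 to E15: it fell by 1.15 log2, a call lost at a pseudocount of 64, and then rose by 3.65 log2. Cnmd, chondromodulin, an inhibitor of vessel growth made by cartilage, rose at both steps, at 10 and 10, 137 and 191, and 2864 and 3482 (at least 2.78 log2, SE 0.16, and then 4.15 log2, SE 0.16). Hapln1, the link protein that ties aggrecan to hyaluronan, had 650 and 1099 at E11 to E15 and 84 and 83 at E9.5 to E10.5 (3.11 log2). Its E9 values of 184 and 174 were higher than those of E9.5 to E10.5, and the early step of -0.97 log2 did not pass the size threshold.

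Of 30 listed cartilage genes, 28 had a probe set, 22 passed the filter on low values and 20 would have passed it without the E11 to E15 arrays. In the later comparison 14 of the 22 rose and none fell (median 2.28 log2), beside 5.4% of all genes higher and a median of -0.03. In the earlier one 3 rose (Cnmd, Trps1 and Wwp2) and 1 fell (Col9a1), with a median of 0.00. That is 13.6% and 4.55%, beside 3.65% and 2.09% of all genes. The further risers at E11 to E15 include Col11a1 (1358 and 1401, against 56 and 80), Col9a2 (507 and 242, against 10 and 10) and Epyc, epiphycan, a proteoglycan of cartilage (320 and 286, against 20 and 14). Among the regulators Sox5 rose, at 137 and 101 against 25 and 29 (1.64 log2, SE 0.24), while Sox9 had 327 and 441 against 251 and 248, a change of 0.58 log2 (SE 0.14) that did not pass the size threshold. A second probe set of Sox9 with a lower mean gave 1.98 log2 and passed. None of 6 bone genes past the filter was called in either direction (Alpl -0.13 to Bmp2 0.84 log2), of 16 listed and 10 with a probe set. Of all genes 9.48% were called. Without the filter the bone gene Mmp13 rose, with 223 and 21 at E11 to E15 against 19 and 10 (1.63 log2). Its 2 late arrays differ widely. The sum of the 5 cartilage markers was 7839 and 7656 at E11 to E15, against 1511 and 1396 at E9.5 to E10.5. Over the inner ear arrays it was 1985 to 8679 at E11 to E15 and 3108 to 5599 at E9.5 to E10.5. This sum therefore does not set the surrounding tissue above the ear.

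Genes outside the cartilage list also led the rises. Otor, otoraplin, a secreted protein of the ear region, was at 10 on 4 arrays and at 1290 and 1153 at E11 to E15 (at least 5.57 log2, SE 0.56). Mia, its relative from cartilage, had 1020 and 1318, against 12 and 11 (5.42 log2, SE 0.29). Smoc2, a matricellular calcium-binding protein, is a member of the list of otic epithelium genes. Its signals were 172 and 222 at E9, 29 and 53 at E9.5 to E10.5, and 2764 and 2360 at E11 to E15. Smoc2 thus fell by 1.92 log2 before it rose by 5.52. An unlooked-for gene among the largest rises was Cyp7a1, the rate-limiting enzyme of bile acid synthesis in liver. It had 745 and 632 at E11 to E15, against 10 and 10 at E9.5 to E10.5 (at least 4.76 log2, SE 0.51). It was represented by 1 probe set, and whether that probe set detects Cyp7a1 transcript here was not tested.

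**Figure D1:**
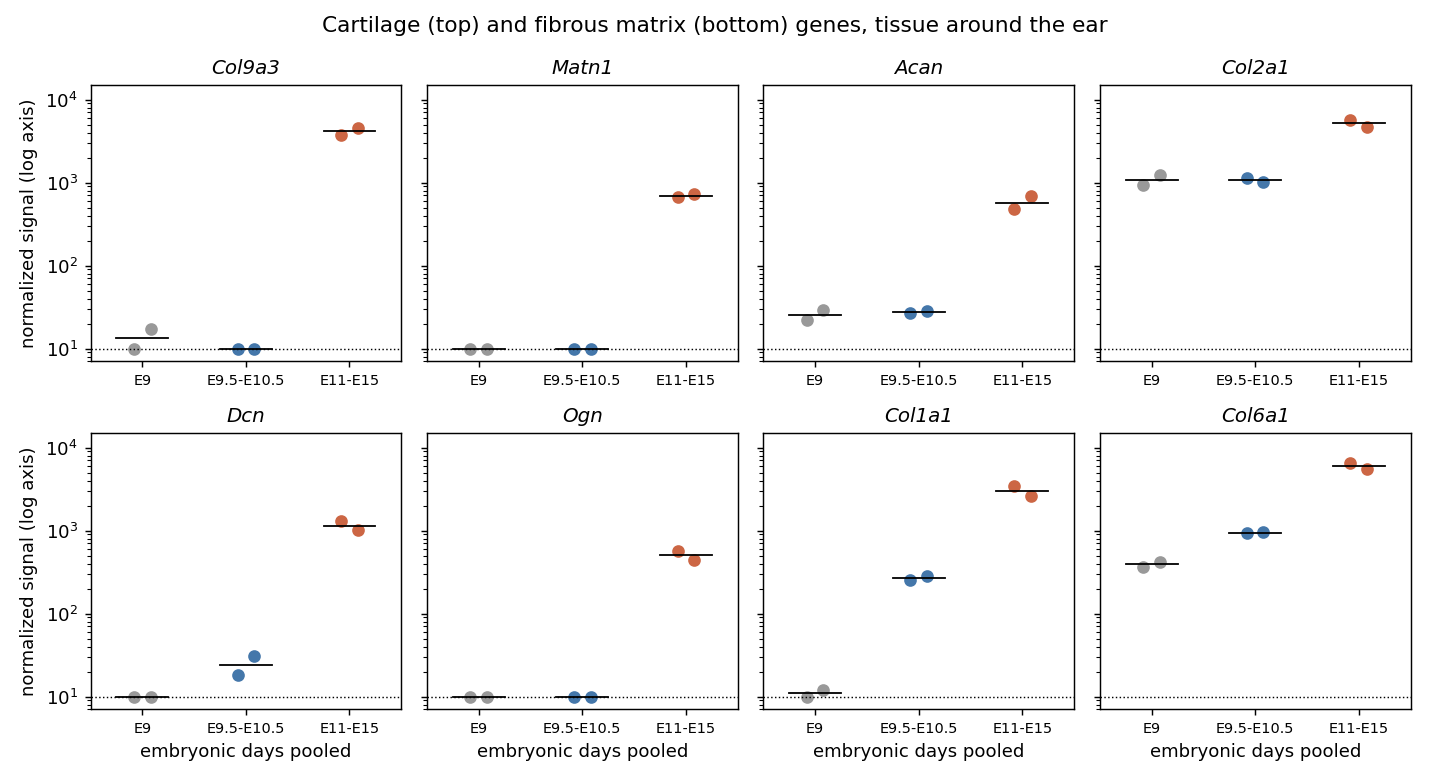
Normalized signal (log axis) of 4 cartilage genes (top) and 4 fibrous matrix genes (bottom) in the tissue around the ear at E9, E9.5 to E10.5 and E11 to E15. Points are arrays, short lines the mean on the log2(signal + 16) scale, and the dotted line the floor of 10. Both E11 to E15 points lie above all earlier points in each gene, and Col1a1 and Col6a1 also rise between E9 and E9.5 to E10.5.

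The promoters of 3 of these cartilage genes that lay at the floor at E9 (Matn1, Cnmd and Col9a2) were searched for the SOX-type cores ACAAAG and ACAATG on both strands, in RefSeq windows of 300 bases (build GRCm38.p6, 250 bases before to 50 after the annotated start). None of the 3 windows holds either core, which 28.6% of 32851 such windows do. That says only that these letters are absent from these windows.

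Of the fibrous matrix genes past the filter, 27 of 36 rose at E11 to E15. Dcn, decorin, a small proteoglycan that binds collagen fibrils, had 10 and 10 at E9, 18 and 31 at E9.5 to E10.5, and 1288 and 1004 at E11 to E15 (4.84 log2, SE 0.25, adjusted p = 3.69e-18). Ogn, osteoglycin of the same family, was at the floor on 4 arrays and at 571 and 446 at E11 to E15 (at least 4.32 log2, SE 0.20). Lum, lumican, had 2176 and 1587 at E11 to E15, against 188 and 179 (3.23 log2, SE 0.38). All 3 proteoglycan genes were low in both groups up to E10.5. Their E11 to E15 arrays did not overlap with those of E9.5 to E10.5, as in 886 of all 887 called genes. Type I collagen came earlier. Col1a1 had 10 and 12 at E9, 253 and 285 at E9.5 to E10.5, and 3472 and 2632 at E11 to E15, rising by 3.40 log2 (SE 0.45) and again by 3.42 log2 (SE 0.45, adjusted p = 1.76e-07). Its partner chain Col1a2 rose by 1.28 and 3.09 log2. Col6a1, a chain of the beaded microfibrils, had 365 and 422 at E9, 923 and 970 at E9.5 to E10.5, and 6505 and 5449 at E11 to E15 (1.24 log2, then 2.63 log2, SE 0.24 for both).

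Of 42 listed fibrous matrix genes, 40 had a probe set, 36 passed the filter and 33 would have passed it without the E11 to E15 arrays. At E11 to E15 against E9.5 to E10.5, 27 rose and none fell (median 1.47 log2), beside 5.4% of all genes higher. In the earlier comparison 4 rose (Col1a1, Mfap4, Col1a2 and Col6a1) and 1 fell (P4ha2, a collagen prolyl hydroxylase subunit), with a median of 0.20. That is 11.1% and 2.78%, beside 3.65% and 2.09% of all genes. Postn, periostin, a matrix protein of perichondrium and periosteum, had 663 and 628 at E11 to E15, against 24 and 40 at E9.5 to E10.5 (3.82 log2). Tnc, tenascin C, was at 10 on the 4 earlier arrays and at 198 and 145 (at least 2.84 log2). Htra1, a secreted serine protease, rose by 4.51 log2 (SE 0.35), to 4122 and 2948 against 134 and 140. Eln, elastin, was the lowest member at -0.53 log2 and was not called. Col14a1, a collagen of fibril surfaces, rose by 4.30 log2 with its main probe set, but a second probe set of the gene gave 0.24 log2 and was not called.

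Transcription factors and receptors of mesenchyme formed a list of their own. Of 34 listed, 32 had a probe set, 21 passed the filter and 18 would have passed it without the E11 to E15 arrays. In the later comparison 7 rose and 1 fell (33.3% and 4.76%, beside 5.4% and 4.08% of all genes; median 0.61 log2). In the earlier 1 rose (Pou3f4) and 2 fell (Meox2 and Meox1), which is 4.76% and 9.52%, beside 3.65% and 2.09% of all genes. With the stricter filter of 16 arrays the later count of risers was 2. Meox2, a homeobox gene of somite derivatives and later mesenchyme, had 116 and 136 at E9, 22 and 27 at E9.5 to E10.5, and 208 and 307 at E11 to E15, a fall of 1.83 log2 followed by a rise of 2.75 log2 (SE 0.28). Six2, a homeobox gene of head mesenchyme, had 1130 and 846, against 163 and 132 (2.61 log2, SE 0.25). Snai2, a zinc finger factor of crest and mesenchyme, had 436 and 645, against 75 and 145 (2.17 log2, SE 0.29). The forkhead genes Foxc1 and Foxc2 rose by 1.49 and 2.13 log2. Zeb2 was the member that fell, with 344 and 295 against 640 and 711 (-1.04 log2), a call lost with the values as deposited, at either other pseudocount and without either of 2 arrays.

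Of the general mesenchyme markers, Prrx1 rose at E11 to E15 and Twist1 and Pdgfra were not called. Twist1, a basic helix-loop-helix factor of crest mesenchyme, had 293 and 223 at E9, 246 and 259 at E9.5 to E10.5, and 398 and 471 at E11 to E15, and neither step was called (-0.02 and 0.74 log2). Pdgfra, the receptor found on most head mesenchyme, had 5382 and 5369 at E11 to E15, against 3518 and 3974 (0.52 log2, SE 0.33, not called). Prrx1 rose by 1.18 log2 (SE 0.36), to 214 and 182 against 79 and 77, with a call lost at a pseudocount of 64 and without any 1 of 3 arrays. Its 2 other probe sets were also called, at 2.51 log2 (455 and 370 against 57 and 60) and 1.17 log2. Tbx18, a T-box factor of the mesenchyme around the ear, did not pass the filter, with 64 and 43 at E11 to E15 against 12 and 17. Without the filter its change was 1.17 log2 (adjusted p = 3.87e-07). Pou3f4, a POU factor of the same mesenchyme whose loss causes deafness, had 19 and 21 at E9, 66 and 66 at E9.5 to E10.5, and 101 and 118 at E11 to E15, and rose at the earlier step (1.19 log2, SE 0.23). Without the filter another probe set stood for the gene and its early change was -0.34 log2.

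**Figure D2:**
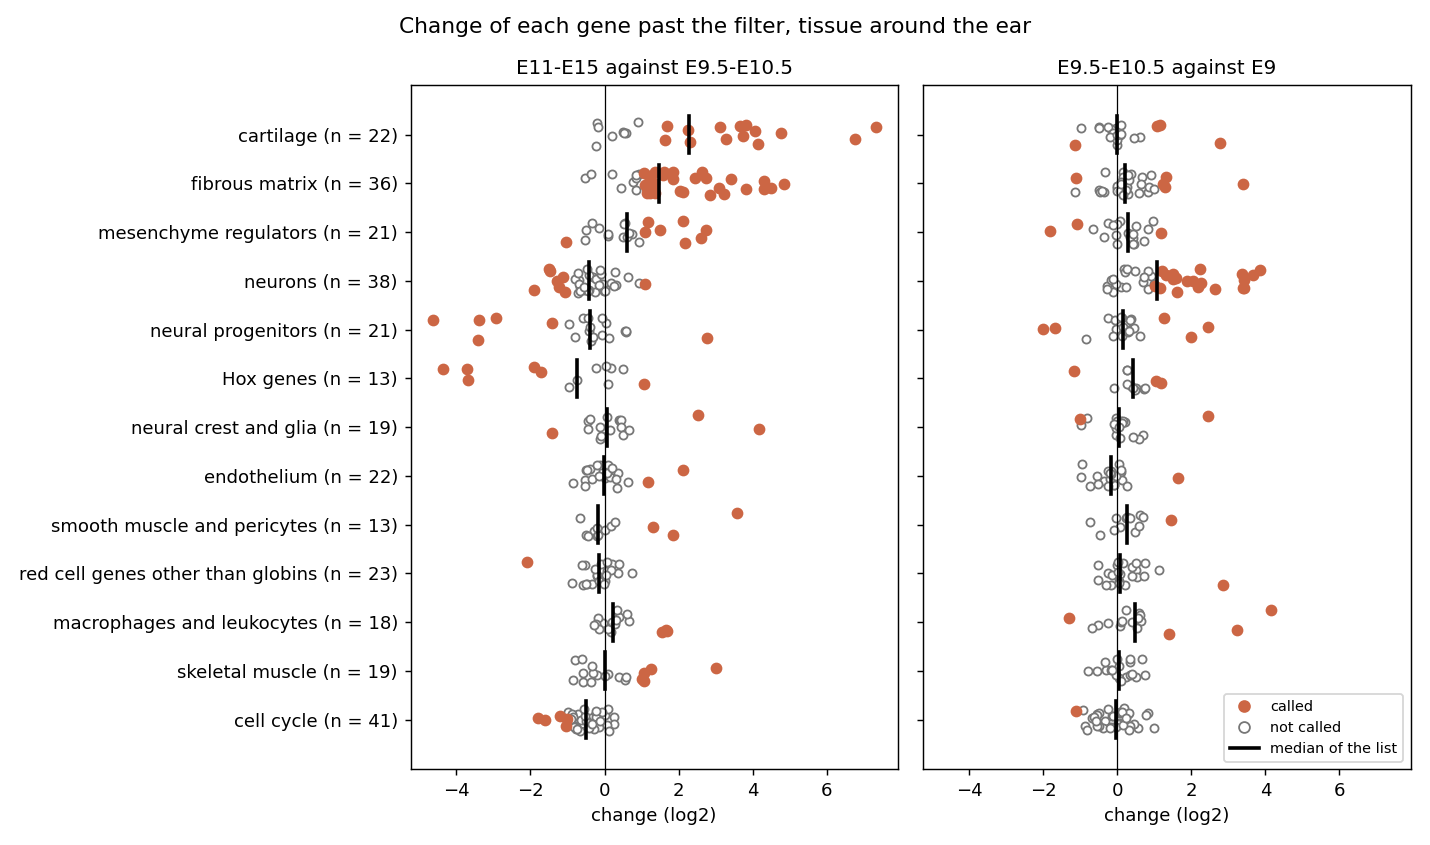
Change (log2) of every gene past the filter in 13 gene lists, at E11 to E15 against E9.5 to E10.5 (left) and at E9.5 to E10.5 against E9 (right). Filled points are called genes, open points are not, and the thick line is the list's median. Cartilage and fibrous matrix lie to the right of 0 in the left panel (medians 2.28 and 1.47), and neurons in the right panel (median 1.08).

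Of the neuron genes past the filter, 20 of 38 rose at E9.5 to E10.5 against E9. Stmn2, a tubulin-binding protein of growing axons, had 325 and 244 at E9, 3442 and 4133 at E9.5 to E10.5, and 3552 and 4313 at E11 to E15, a rise of 3.67 log2 (SE 0.67, adjusted p = 9.64e-05) followed by 0.05 log2. Nefl, the light neurofilament chain, had 145 and 128, then 2020 and 2374, then 1471 and 1301, with an early rise of 3.86 log2 (SE 0.37). Ina, another intermediate filament of neurons, rose by 3.37 log2, to 3236 and 3490 against 339 and 283. For these 3 genes the E9.5 to E10.5 arrays and the E11 to E15 arrays all lay far above E9, and the later step was not called. Tubb3, a neuronal beta-tubulin of young neurons, instead peaked at E9.5 to E10.5, with 148 and 157 at E9, 1764 and 1821 at E9.5 to E10.5, and 596 and 362 at E11 to E15 (3.42 log2, then -1.91 log2, SE 0.39 for both). Chgb, chromogranin B of secretory granules, likewise rose by 3.38 log2 and fell by 1.5 log2, and its later call was lost without the first E11 to E15 array.

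Of 46 listed neuron genes, 43 had a probe set and 38 passed the filter. All 38 would have passed it without the E11 to E15 arrays, and 37 without the E9.5 to E10.5 arrays. In the earlier comparison 20 rose and none fell (median 1.08 log2), beside 3.65% of all genes higher and a median of 0.00. In the later one 1 rose (Ebf1) and 7 fell (Tubb3, Chgb, Map2, Crmp1, Tagln3, Rtn1 and Elavl4), all 7 among the 20 that had risen. That is 18.4% lower, beside 4.08% of all genes, with a median of -0.42 and 29 of 38 changes below 0. At a pseudocount of 64 the 7 became 4. Neurod1, a factor of newly formed ganglion neurons, had 397 and 376 at E9.5 to E10.5, against 42 and 56 at E9 (2.64 log2, SE 0.22). Isl1, a LIM homeobox factor of sensory and motor neurons, had 139 and 165, against 53 and 66 (1.15 log2). Gap43, a protein of growth cones, had 1751 and 1975, against 454 and 315 (2.25 log2), and Syp, a synaptic vesicle protein, had 2256 and 2424, against 637 and 617 (1.87 log2). Elavl3, an RNA-binding protein of neurons, gave conflicting probe sets: the brighter one changed by 0.90 log2 early and -0.22 late and was not called, while the other rose by 3.17 log2 and then fell by 3.93.

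**Figure D3:**
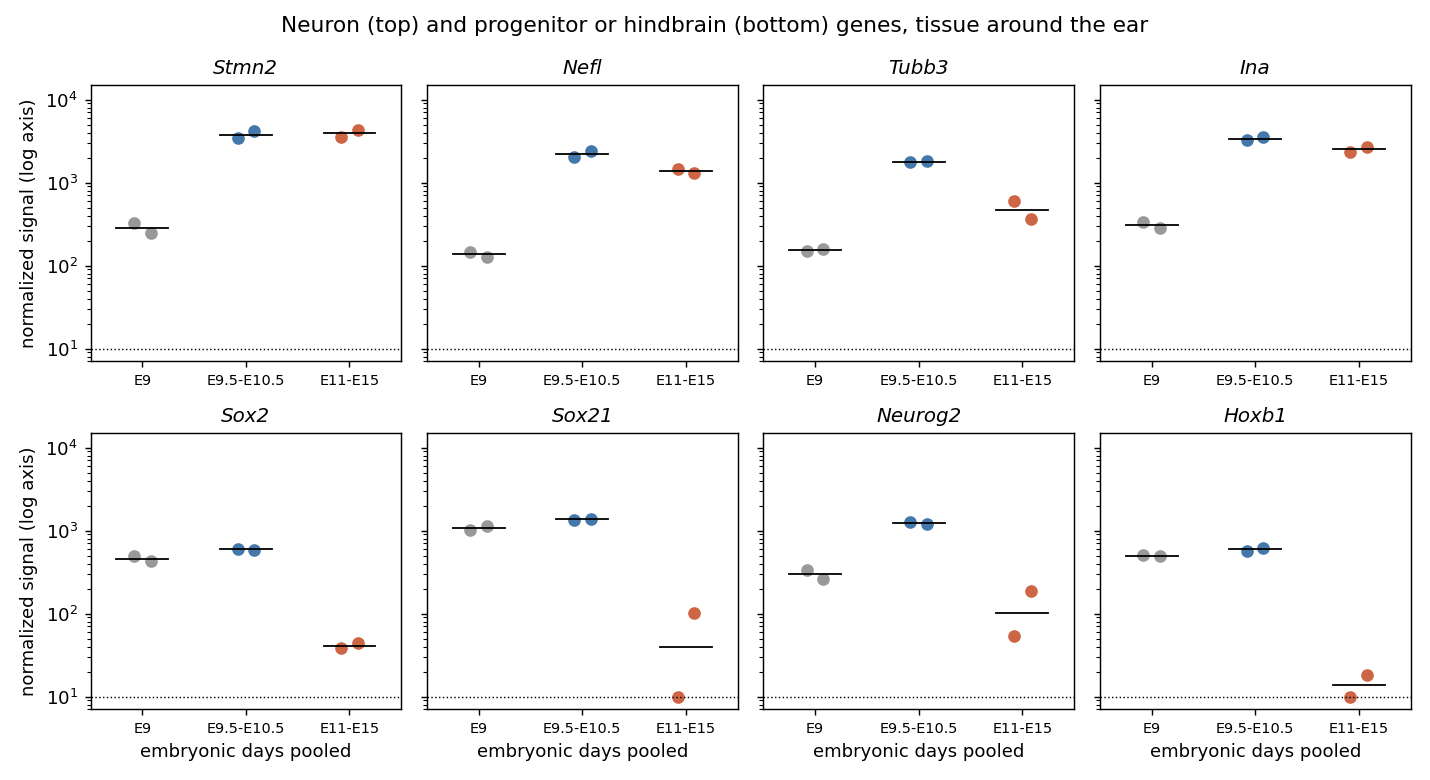
Normalized signal (log axis) of 4 neuron genes (top) and of Sox2, Sox21, Neurog2 and Hoxb1 (bottom) in the tissue around the ear at 3 ages. Points are arrays, short lines the mean on the log2(signal + 16) scale, and the dotted line the floor of 10. The neuron genes lie higher at E9.5 to E10.5 than at E9, and the 4 lower genes drop at E11 to E15.

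Of the neural progenitor genes past the filter, 5 of 21 fell at E11 to E15. Sox2, a factor of neural stem cells and of several sensory and glial lineages, had 491 and 429 at E9, 603 and 582 at E9.5 to E10.5, and 38 and 44 at E11 to E15 (-3.42 log2, SE 0.15, adjusted p = 2.82e-20). Sox21, a related factor of the neural tube, had 10 and 102 at E11 to E15, against 1348 and 1376 (-4.64 log2, SE 0.32). Its 2 late arrays differ by an order of magnitude, and both lie below all earlier arrays. Nes, nestin, an intermediate filament of progenitors, had 456 and 358, against 3106 and 3252 (-2.93 log2, SE 0.36), but a second probe set of lower mean gave 0.07 log2. Neurog2, a proneural factor, had 333 and 263 at E9, 1261 and 1210 at E9.5 to E10.5, and 54 and 185 at E11 to E15, and so rose by 2.00 log2 and then fell by 3.40 log2. Wnt7a, a secreted ligand of the neural tube and of epithelia, followed the same course, with 45 and 75, 408 and 421, and 18 and 14 (2.53 log2, then -3.76 log2).

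Of 34 listed progenitor genes, 30 had a probe set, 21 passed the filter and 20 would have passed it without the E11 to E15 arrays. All 21 would have passed it without the E9.5 to E10.5 arrays. Later, 5 fell (Sox21, Sox2, Neurog2, Nes and Msi1) and 1 rose (Zic2), which is 23.8% and 4.76%, beside 4.08% lower and 5.4% higher of all genes, with a median of -0.40 log2. Earlier, 3 rose (Fabp7, Neurog2 and Msi1) and 2 fell (Egr2 and Zic2), which is 14.3% and 9.52%, beside 3.65% and 2.09% of all genes. Fabp7, a fatty acid binding protein of radial glia and of glial precursors, rose by 2.45 log2 (SE 0.59), to 4285 and 4449 against 821 and 756, and did not fall later (2794 and 3639). Egr2, which marks hindbrain segments and later myelinating glia, had 34 and 20 at E9.5 to E10.5, against 202 and 117 at E9 (-2.0 log2). Sox1, a defining marker of the neural plate, was between 10 and 12 on all 6 arrays, and Pax6 had 55 and 45, against 109 and 64 (-0.59 log2, not called; a second probe set gave -2.10 log2 and was called).

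Hox genes, which mark positions along the hindbrain and the neural crest that leaves it, fell in 5 of 13 cases. Hoxb1, a gene of the hindbrain, had 504 and 491 at E9, 566 and 625 at E9.5 to E10.5, and 10 and 18 at E11 to E15 (-4.36 log2, SE 0.23, adjusted p = 6.49e-18). Hoxb3 had 33 and 61, against 794 and 780 (-3.71 log2), and Hoxc4 was at 10 and 10, against 325 and 315, a fall of at least 3.69 log2. Of 29 listed Hox genes, 24 had a probe set and 13 passed the filter, 11 of them also without the E9.5 to E10.5 arrays. In the later comparison 5 of the 13 fell (Hoxb1, Hoxb3, Hoxc4, Hoxb2 and Hoxb4) and 1 rose (Hoxa3), with a median of -0.74 log2. That is 38.5% lower and 7.69% higher, beside 4.08% and 5.4% of all genes. With a filter of 16 arrays no Hox gene remained among those that fell, since the genes were left out of the test. Hoxa3 had 406 and 783, against 313 and 218 (1.07 log2), and lost its call without either 1 of 2 arrays. Earlier, Hoxc4 and Hoxb3 rose by 1.18 and 1.05 log2 and Hoxb2 fell by 1.16 log2, and all 3 calls were lost at a pseudocount of 64. That is 15.4% higher and 7.69% lower, beside 3.65% and 2.09% of all genes.

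Crest and glial genes showed no common direction. Sox10, which marks migrating crest and glia and is also made by otic epithelium, had 216 and 180 at E9, 194 and 189 at E9.5 to E10.5, and 176 and 181 at E11 to E15, and Foxd3, a crest factor, stayed between 202 and 231 on all 6 arrays. Neither was called at either step. Of 24 listed genes, 21 had a probe set and 19 passed the filter. Of these 19, S100b and Pmp22 rose and Tfap2b fell in the later comparison (median 0.08 log2). Fabp7 rose and Erbb3 fell in the earlier, which is 5.26% each. Of all genes, 5.4% rose and 4.08% fell later, and 3.65% rose and 2.09% fell earlier. Whether so few called genes of 19 exceed those shares was not tested. S100b, a calcium-binding protein of glia and also of chondrocytes, was at the floor on 4 arrays and at 354 and 576 at E11 to E15 (at least 4.17 log2, SE 0.25). Pmp22, a myelin membrane protein that is also found in mesenchyme, had 901 and 895, against 132 and 153 (2.53 log2, SE 0.17). Of 8 melanocyte genes past the filter (10 listed, 9 with a probe set), Pmel and Dct rose at E11 to E15. Pmel also rose at E9.5 to E10.5. These melanocyte counts stand beside 5.4% of all genes higher later and 3.65% earlier. Pmel, a protein of pigment granule fibrils, had 58 and 40, 216 and 213, and 545 and 614 over the 3 ages. Its later change of 1.36 log2 lost its call when any 1 of the 4 arrays was left out.

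Few endothelial genes were called at either step. Kdr, the main receptor for vascular endothelial growth factor, had 418 and 348 at E9, 385 and 409 at E9.5 to E10.5, and 379 and 428 at E11 to E15 (0.05 and 0.02 log2, SE 0.22 for both). Cdh5, the cadherin of endothelial junctions, had 198 and 163 at E11 to E15, against 135 and 143 (0.34 log2), and Pecam1, an adhesion molecule of endothelium, had 132 and 66, against 97 and 96 (-0.04 log2). The sum of 5 endothelial markers was 937 and 787, 821 and 834, and 917 and 878 over the 3 ages, so the groups overlapped. Of 38 listed genes, 35 had a probe set and 22 passed the filter. In the later comparison 2 rose (Fli1 and Vwf) and none fell, with a median of -0.01 log2, a share higher of 9.09% beside 5.4% of all genes. In the earlier 1 rose (Vwf, 4.55% beside 3.65% of all genes) and none fell, with 16 of 22 changes below 0. At E11 to E15 against E9, 4 fell (Sox17, Etv2, Lmo2 and Gja5) and 2 rose (Vwf and Fli1). That is 18.2% and 9.09%, beside 9.57% and 10.3% of all genes. Vwf, the clotting factor stored in endothelium, had 222 and 249, 804 and 722, and 1579 and 1928, rising by 1.63 log2 (SE 0.41) and 1.18 log2 (SE 0.41), and its later call was lost when any 1 array was left out. Fli1, an ETS factor of endothelium and blood, had 417 and 92, against 38 and 30, so its 2 late arrays differ several-fold.

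Mural cell genes were mixed. Cspg4, the NG2 proteoglycan of pericytes and also of chondrocyte precursors, had 39 and 43 at E9, 140 and 136 at E9.5 to E10.5, and 1539 and 2183 at E11 to E15 (1.44 log2, then 3.58 log2, SE 0.31 for both). Rgs5, a pericyte regulator of G protein signalling, had 126 and 84, against 15 and 20 (1.84 log2, SE 0.21), and Myl9, a myosin light chain of smooth muscle, had 496 and 385, against 166 and 165 (1.32 log2, SE 0.30). Acta2, smooth muscle actin, had 192 and 147, against 187 and 150 (0.00 log2, SE 0.19). Of 16 listed genes 13 passed the filter; those 3 rose later, 1 rose earlier (Cspg4) and none fell, with medians of -0.18 and 0.26 log2. The shares higher were 23.1% and 7.69%, beside 5.4% and 3.65% of all genes. The early call of Cspg4 was lost at a pseudocount of 64.

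Blood was followed through the globins, which are switched in order: Hbb-bh1, Hbb-y and Hba-x are the embryonic genes of primitive red cells, and the adult genes follow. The 2 promoters below belong to the embryonic beta-like and alpha-like genes that stayed bright on all 6 arrays. They are RefSeq windows of GRCm38.p6, 5′ to 3′, from 250 bases before to 50 after the annotated start, Hbb-y at chr7:103853158-103853457 on the minus strand and Hba-x at chr11:32276350-32276649 on the plus strand. Capitals mark matches on either strand to 3 kinds of motif. The GATA-type motif was searched as the letters AGATAA and, in its second form, as the letters TGATAA. The other motifs were the letters CACCC and, as the third kind, the letters CCAAT.
Hbb-y: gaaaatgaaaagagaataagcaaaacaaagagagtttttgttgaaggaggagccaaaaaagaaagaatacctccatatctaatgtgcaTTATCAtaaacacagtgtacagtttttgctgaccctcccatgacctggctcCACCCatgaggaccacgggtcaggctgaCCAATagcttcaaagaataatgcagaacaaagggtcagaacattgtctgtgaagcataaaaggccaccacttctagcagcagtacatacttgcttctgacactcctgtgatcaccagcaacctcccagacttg
Hba-x: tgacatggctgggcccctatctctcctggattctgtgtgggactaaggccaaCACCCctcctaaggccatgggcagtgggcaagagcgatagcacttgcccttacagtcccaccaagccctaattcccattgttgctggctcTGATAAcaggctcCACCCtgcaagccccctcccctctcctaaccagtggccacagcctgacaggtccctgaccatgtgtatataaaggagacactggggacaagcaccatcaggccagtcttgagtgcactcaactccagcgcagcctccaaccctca

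The Hbb-y window holds 1 GATA-type match at position -162, 1 CACCC match at -111 and 1 CCAAT match at -83 from the start. The Hba-x window holds 1 GATA-type match at -108 and CACCC matches at -198 and -95, and no CCAAT. Of all 32851 windows of this length, 18.6% hold a GATA-type match, 57.5% a CACCC and 37.4% a CCAAT match. The proteins GATA1 and KLF1 are the known red cell factors for the first 2 kinds of motif, and a match is not evidence that they bind there. On the arrays Gata1 had 201 and 213 at E9, 185 and 162 at E9.5 to E10.5, and 120 and 149 at E11 to E15 (-0.24 and -0.34 log2, not called), and Klf1 did not pass the filter, at 22 to 62 on the 6 arrays.

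Hbb-y had 2975 and 4495 at E9, 7172 and 6330 at E9.5 to E10.5, and 8242 and 6264 at E11 to E15, and neither step was called (0.88 and 0.09 log2, SE 0.54 for both). Hbb-bh1, the earliest of the beta-like genes, had 1131 and 1577, then 2975 and 2724, then 1448 and 953, and fell by 1.26 log2 in the later comparison (SE 0.41, adjusted p = 0.0179). Its 3 probe sets all passed, at -1.26 to -1.56 log2, but the call was lost without any 1 of 3 arrays. Hba-x had 719 and 1356, 2310 and 2295, and 1814 and 1302, and rose by 1.21 log2 at the earlier step (adjusted p = 0.0469), a call lost without any 1 of 3 arrays and with the replicate number as a block (adjusted p = 0.0504). Hbb-b2, annotated as an adult beta-globin gene, had 10 and 95 at E9, 197 and 163 at E9.5 to E10.5, and 4574 and 4095 at E11 to E15 (4.48 log2, SE 0.79, adjusted p = 3.25e-05). Adult beta-globin genes are near-identical copies, so the signal may come from more than 1 of them. Hba-a2, an adult alpha-globin gene, had 126 and 346, against 157 and 129 (0.52 log2, SE 0.44, not called), and Hba-a1 was at the floor on 5 of the 6 arrays.

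Few other red cell genes were called. Of 36 listed, 31 had a probe set and 23 passed the filter, and the one called in both comparisons was Hemgn, hemogen, a nuclear protein of blood precursors, with 27 and 48 at E9, 364 and 363 at E9.5 to E10.5, and 74 and 73 at E11 to E15 (2.86 log2, then -2.09 log2, SE 0.25 for both). As the only member called at either step, Hemgn made up 4.35% higher earlier and 4.35% lower later, beside 3.65% and 4.08% of all genes. The medians of the 23 genes were 0.08 log2 at the earlier and -0.16 log2 at the later step. Alas2, the red cell enzyme of haem synthesis, had 62 and 88 at E11 to E15, against 106 and 71 (-0.19 log2).

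**Figure D4:**
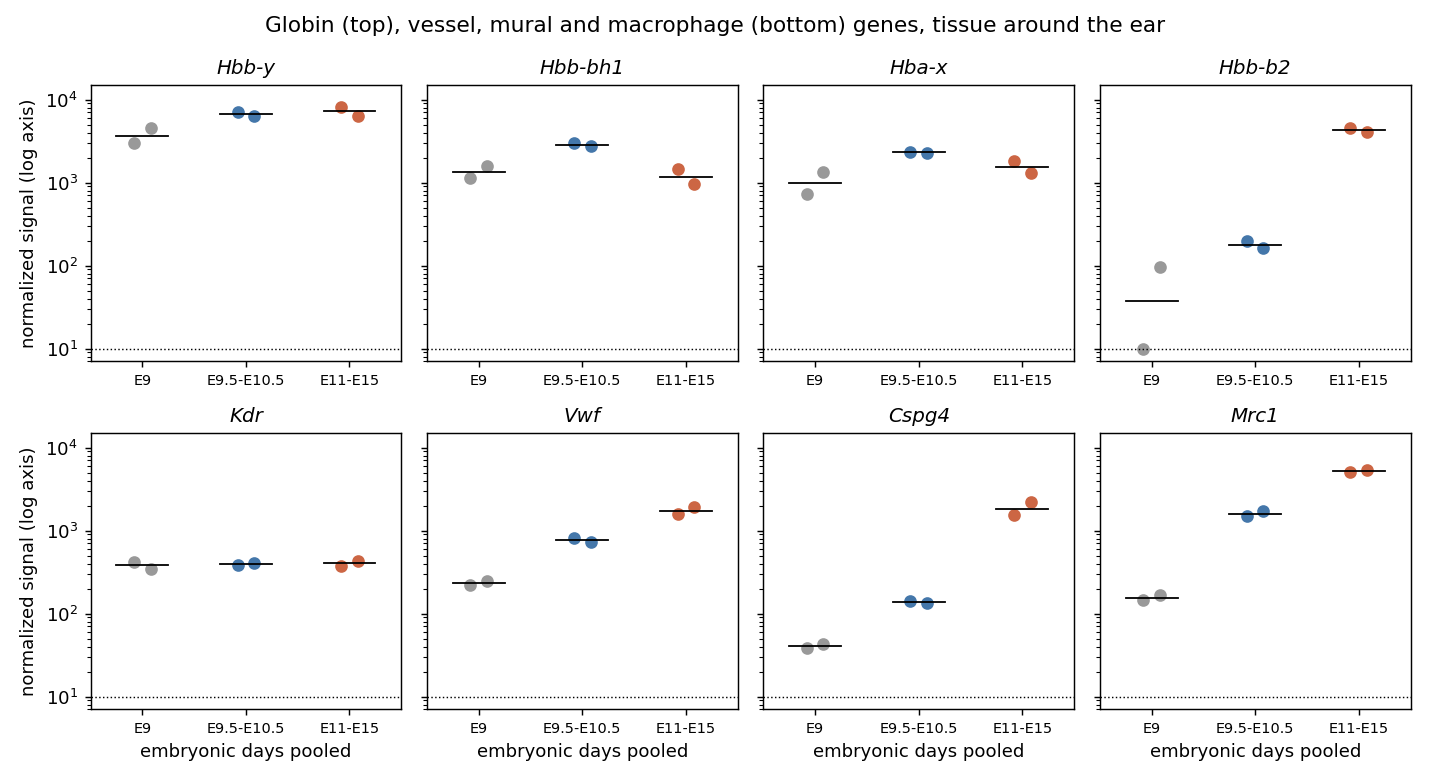
Normalized signal (log axis) of 4 globin genes (top) and of Kdr, Vwf, Cspg4 and Mrc1 (bottom) in the tissue around the ear at 3 ages. Points are arrays, short lines the mean on the log2(signal + 16) scale, and the dotted line the floor of 10. Hbb-y is bright throughout, Hbb-b2 is at 4574 and 4095 at E11 to E15, and Kdr is level.

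Of the macrophage genes past the filter, Mrc1 and F13a1 rose at both steps. Mrc1, the mannose receptor of tissue macrophages, had 146 and 166 at E9, 1485 and 1722 at E9.5 to E10.5, and 5148 and 5299 at E11 to E15 (3.24 log2, then 1.70 log2, SE 0.47 for both). Its later call was lost without the first E9.5 to E10.5 array. F13a1, a transglutaminase of macrophages and platelets, had 10 and 15, 455 and 535, and 1519 and 1658 (4.16 log2, then 1.65 log2, SE 0.41 for both). Folr2, a folate receptor of fetal macrophages, rose at the earlier step, to 237 and 203 against 69 and 79 (1.39 log2). Csf1r, the receptor on which macrophages depend, had 168 and 131, against 124 and 134 (0.18 log2), Tyrobp and Fcer1g were not called, and C1qb lay between 10 and 21 on all 6 arrays. C1qc, another chain of complement C1q, had 21 and 13 at E9, 46 and 42 at E9.5 to E10.5, and 81 and 55 at E11 to E15. Without the filter C1qc, C1qa, Ctss and Lyz1 were called at E11 to E15 against E9 (1.36, 1.02, 1.24 and 1.30 log2), though at neither single step. The marker sum of 5600 and 5731 at E11 to E15, against 1925 and 2101, therefore rests on Mrc1, a gene that some endothelium also expresses. Of 34 listed genes, all with a probe set, 18 passed the filter, and 3 rose in each comparison (16.7%, beside 5.4% of all genes later and 3.65% earlier). In the later one these were Mrc1, F13a1 and Dab2, with a median of 0.24 log2, and in the earlier F13a1, Mrc1 and Folr2, while Dab2 fell. Dab2, an endocytic adaptor, had 1033 and 980 at E9, 373 and 428 at E9.5 to E10.5, and 1282 and 1105 at E11 to E15 (-1.30 log2, then 1.54 log2). A second, dimmer probe set of Dab2 did not show the early fall (0.23 log2, not called) and rose by 1.22 log2 later.

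Of the muscle genes past the filter, 5 of 19 rose at E11 to E15. Tnnc2, fast troponin C, had 116 and 66 at E9, 42 and 241 at E9.5 to E10.5, and 650 and 1453 at E11 to E15 (3.01 log2, SE 0.41). The 2 arrays of the last 2 ages each differed at least 2-fold. Myog, the factor of muscle differentiation, had 127 and 194, against 62 and 52 (1.25 log2, adjusted p = 0.0215), with a call lost under 6 alternatives, and Myod1, which did not pass the filter, was at 10 and 54, against 10 and 10. Of 40 listed genes, 37 had a probe set, 19 passed the filter and 16 would have passed it without the E11 to E15 arrays; 5 of the 19 rose in the later comparison (26.3%, beside 5.4% of all genes), with a median of 0.00 log2. That count was 1 to 4 when single arrays were left out, with Tnnc2 the largest change.

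Of the epithelial genes past the filter, 6 of 21 fell at E9.5 to E10.5 against E9. Rab25, a trafficking protein of epithelia, had 123 and 216 at E9, 10 and 10 at E9.5 to E10.5, and 36 and 75 at E11 to E15, a fall of at least 2.79 log2 (SE 0.25) and a later rise of at least 1.40 log2. Cldn7, a tight junction protein, had 269 and 243, 113 and 108, and 38 and 55 (-1.10 and -1.02 log2). The later call of Rab25 and both calls of Cldn7 were lost at a pseudocount of 64, and the later call of Cldn7 also with the values as deposited and without either of 2 arrays. Of 21 epithelial genes past the filter (25 listed, 23 with a probe set), 6 fell early and none rose (28.6% lower, beside 2.09% of all genes; median -0.52 log2), and 1 fell (Cldn7) and 1 rose (Rab25) later (4.76% each, beside 4.08% and 5.4% of all genes). The sum of 5 epithelial markers was 568 and 561, 238 and 318, and 207 and 180 over the 3 ages, against 2543 to 4526 in the inner ear arrays of E11 to E15, and Epcam, the general epithelial adhesion molecule, was at 10 to 14. Oc90, the main otoconial protein of otic epithelium, had 148 and 178 at E11 to E15, against 10 and 10 (at least 2.78 log2), while inner ear arrays of those ages had 2813 to 10482. Of 23 otic epithelium genes past the filter (26 listed, 24 with a probe set), Smoc2 and Oc90 rose and Gldc fell later. That is 8.7% and 4.35%, beside 5.4% and 4.08% of all genes. Earlier, Smoc2 alone fell (4.35%, beside 2.09% of all genes). The part of carried-over ear tissue in the values of Oc90, Smoc2 and the epithelial markers was not tested.

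Gldc, a mitochondrial glycine decarboxylase that is strong in neural and otic epithelium, had the largest fall of the later step, with 1808 and 2126 at E9, 1197 and 1268 at E9.5 to E10.5, and 13 and 20 at E11 to E15 (-5.26 log2, SE 0.20). Of the genes of the early embryo past the filter, 6 of 15 fell as well. Lin28a, the RNA-binding protein that blocks let-7 maturation and sets developmental timing, had 5492 and 5609 at E9, 2632 and 2583 at E9.5 to E10.5, and 49 and 92 at E11 to E15 (-1.09 log2, then -4.97 log2, SE 0.27 for both). A second probe set of Lin28a also fell later (-5.16 log2), but its early change of -0.55 log2 was not called. Igdcc3, an immunoglobulin family membrane protein, had 59 and 32, against 1417 and 1377 (-4.55 log2, SE 0.36). Of 15 genes of that list past the filter (24 listed, 18 with a probe set), 6 fell and none rose in the later comparison (40.0% lower, beside 4.08% of all genes): Lin28a, Igdcc3, Mycl, Dusp9, Igf2bp1 and Mycn. Hmga2, often grouped with them, had 1927 and 931, against 951 and 882 (0.54 log2, not called).

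Of 44 listed cell cycle genes, 41 had a probe set and passed the filter, and 5 fell and none rose in the later comparison (12.2% lower, beside 4.08% of all genes; median -0.49 log2), with 35 of 41 changes below 0. Aurkb, a mitotic kinase, had 1444 and 1348 at E9, 939 and 946 at E9.5 to E10.5, and 254 and 265 at E11 to E15 (-1.80 log2, SE 0.17). Mki67, the antigen of cycling cells, had 491 and 399, against 475 and 593 (-0.25 log2, not called). The count of 5 was 3 to 11 when single arrays were left out. Of the growth and imprinted genes, 7 of 19 past the filter (23 listed, 21 with a probe set) rose and none fell later (36.8%, beside 5.4% of all genes; median 0.66 log2). Igf2, the fetal growth factor, had 525 and 552, 625 and 573, and 2550 and 2004 (0.15 log2, then 1.89 log2, SE 0.18 for both). Cdkn1c, an imprinted inhibitor of the cell cycle, had 249 and 255, 936 and 1025, and 4196 and 3140, and rose at both steps (1.89 and 1.87 log2, SE 0.20). Plagl1 and Meg3, 2 further imprinted genes, also rose at both steps with the probe sets that stood for them. A second Plagl1 probe set rose later (1.09 log2) but was not called early (0.41 log2). For Meg3 another probe set was called at both steps (1.79 and 1.35 log2). Others, at 0.96 and 0.67 log2 and at 0.40 and 0.39 log2, were called at neither.

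Since the incubation in dispase was longer from E11, genes that react quickly to tissue handling were listed too. Fos had 62 and 39 at E11 to E15, against 34 and 39, Egr1 62 and 41, against 32 and 41, and Atf3 103 and 90, against 89 and 85; none was called. Of 20 such genes past the filter (27 listed), 2 rose in the later comparison (10.0%, beside 5.4% of all genes; median 0.20 log2): Klf4, with 737 and 1247 against 102 and 93 (3.11 log2, SE 0.20), and Ccn2, with 187 and 212 against 47 and 57 (1.66 log2). Both are also known from mesenchyme and cartilage, and the part of the incubation in their change was not tested.

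Whether a change belongs to the surrounding tissue or is shared with the ear was tested as the difference between the change around the ear and the mean change of the inner ear over the same ages. At the later step 852 genes differed (9.11%), 365 with a higher change around the ear (3.9%) and 487 with a lower one (5.21%). This split depends on scaling, since with the values as deposited it was 545 and 325 and the median difference of all genes was 0.16 log2, against -0.02 with quantile normalization. At the earlier step 594 genes differed (6.35%), 262 with a higher change around the ear (2.8%) and 332 with a lower one (3.55%). At the later step 14 of 22 cartilage genes past the filter had a called difference, and all 14 were higher around the ear. Of 36 fibrous matrix genes, 23 were then higher and 1 (Sparc) lower. Most called matrix genes went the other way at the earlier step. Of the cartilage genes 2 were then higher and 5 lower (9.09% and 22.7%, beside 2.8% and 3.55% of all genes). Of the fibrous matrix genes 1 (Col1a1) was higher and 5 were lower (2.78% and 13.9%). The genes below were picked from the rule's names after their values were seen.

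Col9a3 rose in the ear as well, by 1.69 log2, so that the surrounding tissue exceeded it with a difference of 5.63 log2 (adjusted p = 2.1e-24). For Matn1 the difference was 4.51 log2, for Acan 3.82, for Col2a1 1.97, for Col6a1 3.73 and for Col1a1 2.67 log2. Cspg4 and Pmp22 differed by 3.18 and 2.40 log2. Dcn and Mia rose strongly in both, by 3.55 and 3.90 log2 in the ear, and still differed by 1.29 and 1.52 log2. On the falling side Sox2 changed by 0.01 log2 in the ear, where it marks the prosensory epithelium, and the difference was -3.43 log2 (adjusted p = 9.28e-19). Sox21 (-5.08 log2), Wnt7a (-5.69), Nes (-2.79), Hoxb1 (-4.07), Hoxc4 (-3.68) and Gldc (-3.80) also had a lower change around the ear than in it. Cyp7a1 changed by -1.27 log2 in the ear, a difference of 6.02 log2. Hbb-bh1 fell less around the ear than in it (difference 1.55 log2).

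Other changes were not shown to differ from those of the ear. Lin28a fell by 5.55 log2 in the inner ear, and the difference was 0.59 log2 (SE 0.29, adjusted p = 0.1389). Six2 rose by 2.17 log2 there (difference 0.44 log2), Hbb-b2 by 3.50 log2 (difference 0.98 log2, adjusted p = 0.4256) and Mrc1 by 1.21 log2 (difference 0.49 log2). At the earlier step the change of neuronal genes was higher around the ear than in it. The difference was 4.88 log2 for Stmn2, 3.78 for Nefl, 3.77 for Ina, 2.93 for Tubb3 and 3.24 for Neurog2. Col1a1, the only fibrous matrix gene with a higher called difference at that step, differed by 3.33 log2. F13a1 differed by 3.42, Mrc1 by 2.35, Hemgn by 2.77 and Hba-x by 1.95 log2, and Rab25 by -2.35 log2.

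**Figure D5:**
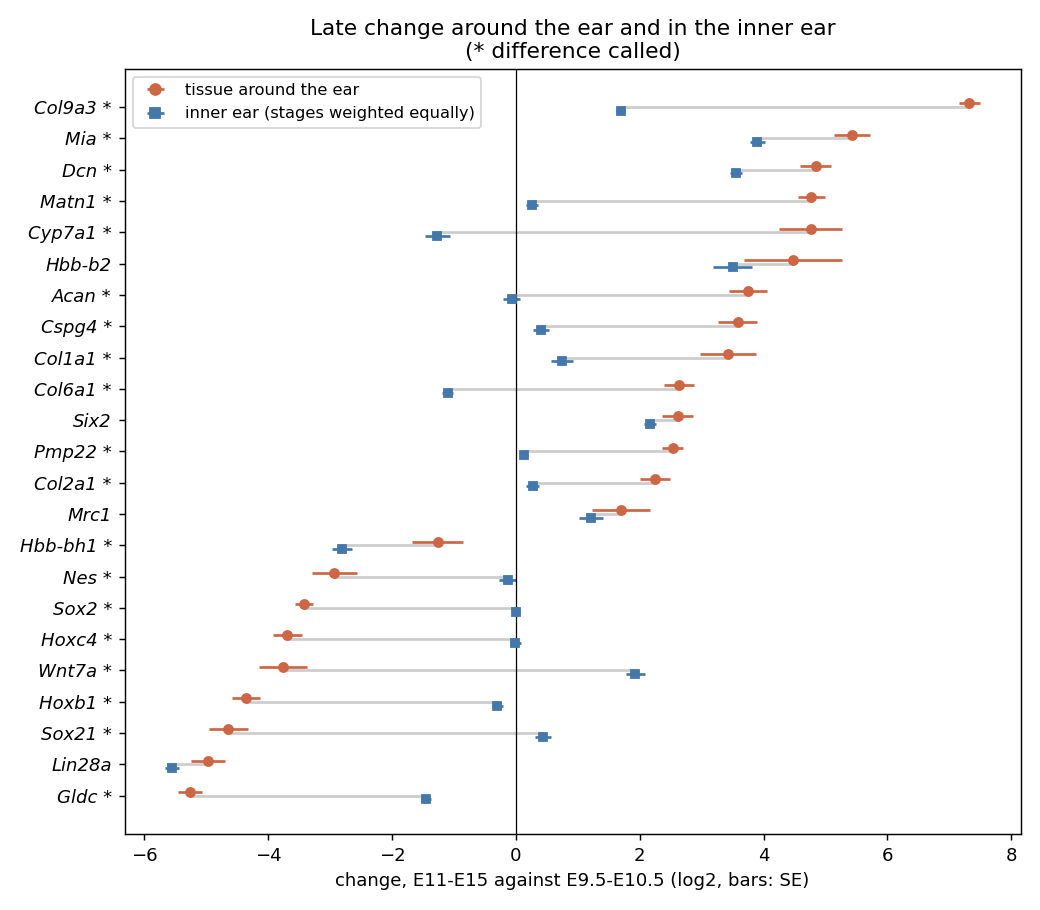
Change (log2, bars are SE) at E11 to E15 against E9.5 to E10.5 in the tissue around the ear (circles) and in the inner ear (squares, stages weighted equally) for 23 genes. An asterisk marks a called difference between both changes. Sox2 is at -3.42 around the ear and 0.01 in the ear, while Lin28a falls in both.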

How the data were processed

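RNA from 1 pool of tissue per array was hybridised to Affymetrix expression arrays, 64 in all in 32 groups of 2. The deposited values are probe set intensities on a linear scale, which the authors made with MAS5, according to what the submitters' processing notes list. Its version and scaling target are not given in those sources. Groups were read from the labels, and no value column was left unused.

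Array brightness, as the mean after trimming 2 percent at each end, spanned 224.7 to 355.3 (1.581-fold, above a limit of 1.2), so arrays were quantile normalized, and log2(signal + 16) was taken. Of 22626 probe sets, 20380 have 1 gene symbol, 691 several and 1555 none in the platform annotation; only the first were used. Probe sets with at least 2 of 64 arrays at or above their array's median were kept (14014), and the brightest kept probe set stood for each of 9352 genes. limma 3.58.1 in R 4.3.3 fitted 1 model with 32 groups (32 residual degrees of freedom), with two-sided p-values adjusted by Benjamini-Hochberg over all 9352 genes. The script was tested on simulated data. The number of arrays limits the precision. In the inner ear each stage is the mean of its tissues, and stages weigh equally.

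Named genes are the 10 largest changes in each direction of the first 2 comparisons with groups that do not overlap, up to 4 called members of each list with the largest change, and a fixed panel. The members, lists and rules were chosen with earlier results of these data known. Named outside the rule, after their values were seen, are Col11a1, Col9a2, Hapln1, Epyc, Sox5, Alpl, Bmp2, Mmp13, Lum, Postn, Tnc, Eln, Foxc1, Zeb2, Pdgfra, Neurod1, Isl1, Gap43, Syp, Elavl3, Sox1, Pax6, Foxd3, Hoxa3, Hba-a2, Alas2, Tyrobp, Fcer1g, C1qa, C1qb, C1qc, Ctss, Lyz1, Hmga2, Fos, Egr1, Atf3, Sparc, summed markers and the members named as the few called of a list. Equally numbered arrays of 2 groups deviated together with correlations of 0.07, -0.17 and -0.06 across genes, so the numbers were not taken to pair them. Alternatives were other pseudocounts (1 and 64), filters (none, 16 arrays, or the 6 arrays alone), values as deposited, every probe set alone, array weights, the 6 arrays alone, a replicate block, inner ear stages weighted by pool composition, and leaving out arrays.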

Additional observations from a re-analysis of the deposited data

Results flagged for a closer look

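No group had enough arrays for a test of single arrays. Of the genes named by rule with a called change around the ear, 56 at the later and 40 at the earlier step had a change that differed from that of the inner ear by the test of the difference itself (limma adjusted p under 0.05 and at least 1 log2). Over all 9352 genes, 9.11% and 6.35% had a called difference. The rule favours large changes around the ear, which are 1 term of the difference. Called differences are thus favoured by the choice, and the counts of 56 and 40 show no enrichment. Of the 56 and 40 genes, 18 and 11 that the report gives, and also Col6a1, which the rule names at the earlier step alone, are listed here by their difference, the change around the ear minus the change in the inner ear.

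At the later step the difference was 5.63 log2 for Col9a3, 4.51 for Matn1, 3.82 for Acan and 1.97 for Col2a1 among cartilage genes. It was 2.67 for Col1a1, 3.73 for Col6a1, 1.29 for Dcn and 1.52 for Mia among other matrix genes, and 3.18 for Cspg4, 2.40 for Pmp22, 6.02 for Cyp7a1 and 1.55 for Hbb-bh1. It was -3.43 for Sox2, -5.08 for Sox21, -5.69 for Wnt7a and -2.79 for Nes, and -4.07 for Hoxb1, -3.68 for Hoxc4 and -3.80 for Gldc. The differences of Mia at a pseudocount of 64 and of Hbb-bh1 under 4 alternatives were no longer called.

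At the earlier step the difference was 4.88 log2 for Stmn2, 3.78 for Nefl, 3.77 for Ina, 2.93 for Tubb3 and 3.24 for Neurog2. It was 3.33 for Col1a1, 3.42 for F13a1, 2.35 for Mrc1, 2.77 for Hemgn and 1.95 for Hba-x, and -2.35 for Rab25. That of Hba-x was not called without any 1 of 3 arrays.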

How the results depend on the processing

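Of 71 recounts of the 5 comparisons, 63 stayed within 1.5 times the count reported. At a pseudocount of 64 the later comparison called 526 genes, the earlier 311, the later difference from the inner ear 517 and the earlier difference 341. With every probe set tested alone the counts were 1370 for the later comparison, 825 for the earlier, 2919 for E11 to E15 against E9 and 956 for the earlier difference, over more probe sets than genes. Without 1 array in turn they were 862 to 1066 (later), 455 to 588 (earlier), 1843 to 1996 (E11 to E15 against E9), 738 to 1093 (later difference) and 429 to 543 (earlier difference); the remaining array was then assumed to vary like the other groups. With the replicate number as a block among the 6 arrays they were 888, 533, 1856, 853 and 594, and among the named genes the block ended the early call of Hba-x. A crossed pairing of E9 with E11 to E15, chosen after seeing the data, called 1856. Among single genes, the direction turned for Pou3f4 without the filter, at the earlier step (-0.34 log2) and in its difference from the inner ear (-0.32 log2), since another probe set then stood for it. Calls were lost in 257 and gained in 11 of 4460 recomputed single values. The list counts of cartilage and fibrous matrix genes higher at the later step and of neuron genes higher at the earlier step stayed within 1.5 times under every alternative run. With 2 arrays a group, changes near the threshold are the least certain, and values at the floor of 10 have no order.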
